A study of Homo sapiens with 16 samples.

Results

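The genes described here are 9 components of tight junctions: the claudins CLDN1, CLDN3, CLDN4, CLDN7 and CLDN12, occludin (OCLN), junctional adhesion molecule A (F11R), the scaffold zonula occludens 1 (TJP1) and the lipolysis-stimulated lipoprotein receptor (LSR). They were taken by gene symbol, and all 9 were found among the 23340 named genes of each of 3 tables of normalised counts. The study sequenced RNA of CCLP1, an established human cell line from a cholangiocarcinoma that arose within the liver, a bile duct tumour, in 16 libraries, 2 for each of 8 groups. In experiment 1, cells carried an shRNA against HHEX, the gene of the transcription factor PRH, or a non-targetting shRNA, and the libraries of a group came from separate clones. In experiment 2, parental cells were infected with an adenovirus carrying myc-PRH or with an empty adenovirus. In experiment 3, cells with an shRNA labelled as directed at NOTCH3, or with the non-targetting shRNA, received either the myc-PRH or the empty adenovirus, which gives 4 groups. The libraries of a group in experiments 2 and 3 came from separate infections and are called A and B only as names. Each table was scaled on its own, so groups are compared within an experiment only.

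Tight junctions seal the space between neighbouring epithelial cells and keep the apical and basolateral membranes apart. Claudins form the strands of the seal, and the mix of claudins sets which ions and small solutes can pass. Occludin lies in the same strands, LSR marks the corners where cells of a sheet meet in threes and brings in tricellulin (MARVELD2), F11R is an immunoglobulin-type adhesion receptor, and TJP1 links these membrane proteins to actin. In bile ducts the seal separates bile from the surrounding tissue.

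Some measurements bear on every result below. Reads in named genes numbered 31136366 to 65190592 per library in experiment 1. The range was 20795552 to 28037741 for experiment 2 and 47257779 to 69899040 for experiment 3. HHEX was lower in the PRH shRNA clones (314 and 326 normalised counts) than in the control clones (580 and 554). Its log2 fold change was -0.82 (95% confidence interval -2.05 to 0.41) and did not pass (limma, unadjusted p = 0.15, adjusted p = 0.9999). The myc-PRH virus raised HHEX in each cell background, to between 46576 and 330421. The libraries labelled NOTCH3 shRNA do not bear out their label with the empty virus. There NOTCH3 was at 655 and 1018, against 711 and 838 with the control shRNA. Its log2 fold change was 0.08 (95% confidence interval -0.46 to 0.62; limma, adjusted p = 0.798), so a fall was not detected. With the PRH virus NOTCH3 was at 761 and 1086 against 2295 and 2488, a log2 fold change of -1.39 (limma, adjusted p = 0.00118), and the interaction was -1.47 (adjusted p = 0.0279; lost without the intensity trend, 0.128, and without any single library other than empty-virus library A labelled NOTCH3 shRNA, 0.0514 to 0.117). NOTCH3 rose with the PRH virus in control shRNA cells, and its value with PRH in the cells labelled NOTCH3 shRNA was near that with the empty virus. These libraries also stand apart from the others: 51.9% of 15836 genes tested differed between the shRNAs with the empty virus. Among 6 markers of bile duct epithelium (KRT7, KRT8, KRT18, KRT19, EPCAM and SOX9), the summed level was 360274 to 459019 in the libraries labelled NOTCH3 shRNA. In the control shRNA libraries of experiment 3 it was 5487 to 14696, and KRT7 was listed at 0 in both that received the empty virus. Whether the cells behind these libraries are the same line as the others was not tested, and the values below compare the libraries as labelled. The samples are bulk cultures, so a smaller share of cells that make an mRNA and less mRNA per cell cannot be told apart.

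The stretches before the gene starts are shown for CLDN7, LSR and CLDN3, which are among the 4 members that differed most between the shRNAs with the empty virus. They come from RefSeq (build GRCh38.p14), in windows of 250 bases before each start, for 8 of the 9 genes and 13 windows in all; F11R is named only. The letters CACCTG, an E-box bound by repressors of the Snail and ZEB families, occurred on either strand in 17.49% of the windows of all genes. They occurred in 4 of the 13 windows, from CLDN7, OCLN and TJP1. One CLDN7 window (chr17:7262479-7262728, minus strand) held 4 matches, the most of any member window, and 4 or more were found in 43 of 35116 windows, or 0.1225%. The other CLDN7 window held no E-box. The CLDN7 window with the E-boxes and the LSR window overlap annotated exons. In the lines that follow, capitals mark the E-box or, in LSR, the letters TGGGAA, the core bound by RBPJ, the DNA-binding partner of Notch receptors.
CLDN7, chr17:7262635-7262664, minus strand: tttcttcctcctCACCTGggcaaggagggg
CLDN7, chr17:7262596-7262625, minus strand: cgacttccggttCAGGTGagtgtcccttcg
CLDN7, chr17:7262479-7262508, minus strand: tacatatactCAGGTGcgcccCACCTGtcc
LSR, chr19:35248908-35248937, plus strand: aaggaacggaagTGGGAAggggaggagcgt
The RBPJ core was present in 4 windows, from CLDN7, CLDN12, OCLN and LSR, against 20.85% of all windows. The letters AACCNGTT, bound by grainyhead-like factors, and CAATTA, a core bound by PRH, were not found in the 13 windows, against 1.487% and 6.703% of all windows. No member window of CLDN1, CLDN3 or CLDN4 held any of the 4 motifs. The CLDN3 window, chr7:73770271-73770520 on the minus strand, overlaps no annotated exon and has 71.6% G or C. Its sequence shows what a member without a match looks like.
CLDN3: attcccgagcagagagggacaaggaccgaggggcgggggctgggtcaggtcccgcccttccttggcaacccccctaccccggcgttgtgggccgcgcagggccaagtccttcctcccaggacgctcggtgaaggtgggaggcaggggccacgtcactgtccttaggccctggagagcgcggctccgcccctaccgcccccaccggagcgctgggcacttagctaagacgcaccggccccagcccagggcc
A match of letters is a description of the window and says nothing about whether a factor was bound in these cells.

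The first question was what the PRH virus did to the junction genes. In control shRNA cells it raised LSR, F11R and CLDN4 and lowered CLDN1, so that a corner protein, an adhesion receptor and 1 claudin went up and another claudin went down. OCLN, TJP1 and CLDN12 stayed within 0.09 on the log2 scale. In parental cells LSR, F11R and CLDN1 passed in the same directions, and CLDN4 did not pass. Cell type markers moved with the virus as well. The fibroblast markers were COL1A1, COL1A2, COL3A1, DCN, LUM and PDGFRB. In control shRNA cells summed bile duct markers were 14126 to 14696 with the empty virus and 5487 to 7920 with PRH, and summed fibroblast markers 87637 to 103535 and 36585 to 51498. In parental cells they were 2891 to 3355 and 1966 to 2209 for bile duct, and 34604 to 35482 and 28160 to 29737 for fibroblast. Their part in the results on the junction genes was not tested.

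LSR was at 31.8 and 43.0 normalised counts in control shRNA cells with the empty virus and at 445 and 465 with the PRH virus. The ranges are far apart, and the mean was 12.2-fold higher with PRH, a log2 fold change of 3.58 ± 0.22 (SE, n = 2 per group; limma, adjusted p = 1.8e-05). In parental cells the values were 25.7 and 27.7 with the empty virus and 116 and 101 with the PRH virus. That difference was also free of overlap, at a log2 fold change of 1.98 ± 0.28 (limma, adjusted p = 0.0072).

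F11R, which supports the first contacts between epithelial cells, was at 233 and 261 in control shRNA cells with the empty virus and at 1369 and 1230 with PRH. Both PRH libraries were above both empty-virus libraries, at a log2 fold change of 2.39 ± 0.14 (limma, adjusted p = 1.63e-05). In parental cells it was at 63.2 and 80.9 with the empty virus and at 366 and 208 with PRH, a log2 fold change of 1.94 ± 0.31 (limma, adjusted p = 0.0101). The PRH libraries of the parental cells lay further apart than those of the control shRNA cells.

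CLDN1, a sealing claudin, was at 319 and 330 in control shRNA cells with the empty virus and at 188 and 184 with PRH. It fell by 0.80 ± 0.18 on the log2 scale (limma, adjusted p = 0.00964). In parental cells it was at 954 and 525 with the empty virus and at 281 and 246 with PRH, and fell by 1.43 ± 0.27 (limma, adjusted p = 0.0178). The 2 empty-virus libraries of the parental cells differed widely, yet both lay above the PRH libraries.

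CLDN4, which limits the passage of sodium, was at 62.5 and 82.6 in control shRNA cells with the empty virus and at 196 and 133 with PRH. It rose by a log2 fold change of 1.16 ± 0.21 (limma, adjusted p = 0.00372). In parental cells the values overlapped, with 73.7 and 32.1 for the empty virus and 62.1 and 53.0 for PRH. The log2 fold change there was 0.23, with a 95% confidence interval from -0.78 to 1.24 and a limma adjusted p of 0.754, and whether the response differed between the experiments was not tested because they were scaled separately.

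The other claudins were scarce or did not pass. CLDN3, a sealing claudin, had 2.26 to 11.6 normalised counts in the 4 control shRNA libraries. In parental cells it was at 8.19 and 1.11 with the empty virus and 28.4 and 7.82 with PRH, below the level needed for a test. CLDN7, which in mice is needed for intestinal integrity, was at 5.12 and 12.4 with the empty virus and 15.3 and 13.5 with PRH in control shRNA cells, and the PRH values were higher without passing (log2 fold change 0.76, limma adjusted p = 0.151). In parental cells CLDN7 was at 45.6 and 59.8 with the empty virus and 39.9 and 46.0 with PRH, so the groups overlapped.

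CLDN12, a claudin without the PDZ-binding end of the other claudins, was at 2833 and 3156 with the empty virus and 2997 and 3139 with PRH in control shRNA cells. OCLN was at 2307 and 2343 with the empty virus and 2476 and 2312 with PRH. TJP1 was at 6544 and 6388 with the empty virus and 7076 and 6672 with PRH. For these genes the log2 fold changes were 0.04, 0.04 and 0.09, and the 95% confidence intervals stayed between -0.40 and 0.47. In parental cells CLDN12 was at 1252 and 875 with the empty virus and 984 and 797 with PRH, OCLN at 908 and 936 against 988 and 1038, and TJP1 at 3818 and 4214 against 3709 and 4456. None of these passed there either. OCLN has a near-identical pseudogene copy, listed in the tables as LOC647859 at 12.9 to 203 normalised counts, and how reads shared by the copies were counted is not given in the sources used here.

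By count, 3 of the 9 genes rose in control shRNA cells, where 15.2% of the 15836 genes tested rose, and 1 fell, where 11.8% fell. In parental cells 2 of 8 tested members rose against 9.90% of 13263 genes, and 1 fell against 5.73%. The median log2 fold change of the members was 0.76 in control shRNA cells and 0.08 in parental cells, and the medians of all genes tested were 0.00 and -0.01. When the fit was limited to the 4 control shRNA libraries, without the libraries labelled NOTCH3 shRNA, LSR and F11R passed and CLDN1 (limma adjusted p = 0.0756) and CLDN4 (0.133) did not. CLDN1 in control shRNA cells also no longer passed without empty-virus library B (adjusted p = 0.0521). CLDN7 passed in that fit, at a log2 fold change of 1.33 (adjusted p = 0.0112). In parental cells CLDN1 (0.0825) and F11R (0.0518) did not pass in a limma fit without an intensity trend.

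**Figure D1:**
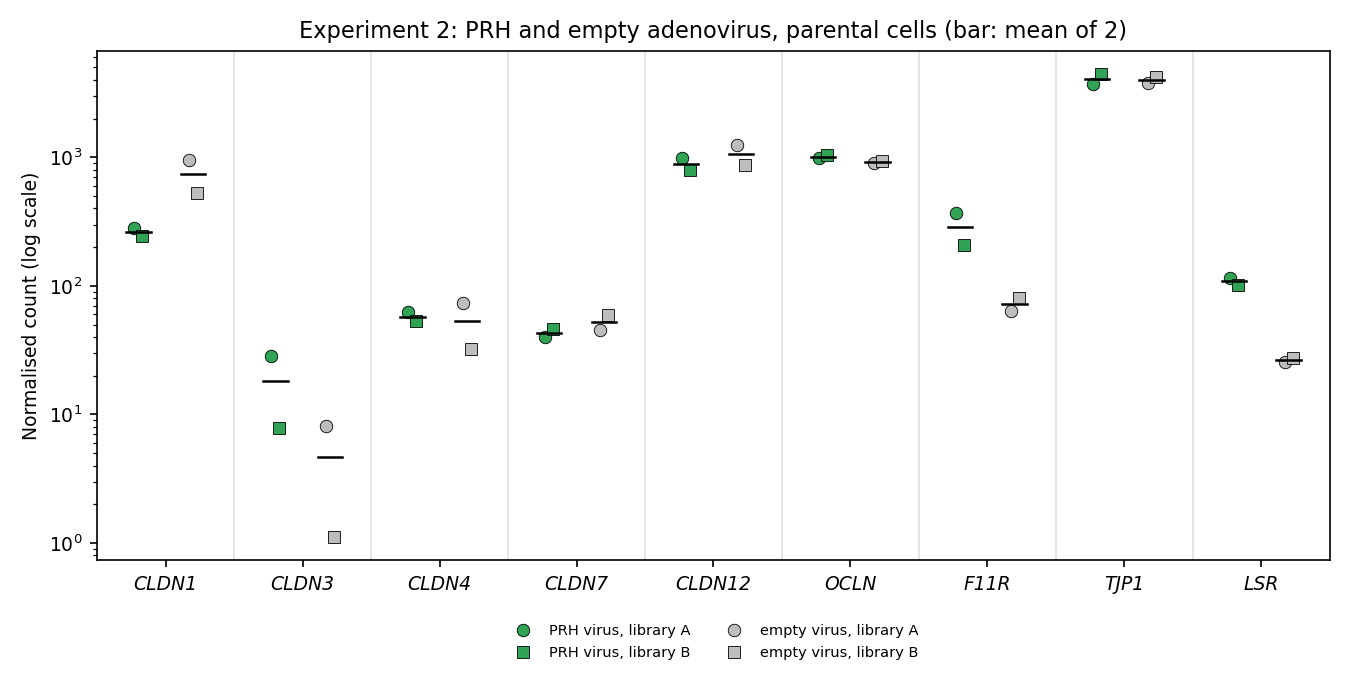
Normalised counts (log scale) of the 9 genes in parental cells of experiment 2. Circles and squares are libraries A and B, colours the virus and bars the mean of 2 libraries; LSR at 101 to 116 and F11R at 208 to 366 with the PRH virus sit above the empty-virus libraries, and CLDN1 sits below them.

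The next comparison is between the shRNAs. The 2 libraries of a group are separate infections, so the p-values do not cover the spread between separately made shRNA cells. In the libraries labelled NOTCH3 shRNA 7 of the 9 genes were higher than with the control shRNA, with either virus. With the empty virus the rise was largest in ratio for CLDN7, LSR, CLDN4 and CLDN3, each from less than 100 normalised counts. OCLN and CLDN12 did not pass, and TJP1 rose by less than 2-fold.

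With the empty virus CLDN7 was at 8255 and 8576 in the libraries labelled NOTCH3 shRNA, against 5.12 and 12.4 with the control shRNA. The mean was 958-fold higher, a log2 fold change of 9.86 ± 0.36 (limma, adjusted p = 1.1e-07). With the PRH virus it was at 6743 and 6742 against 15.3 and 13.5, a log2 fold change of 8.77 ± 0.36 (limma, adjusted p = 2.93e-07). The control values rest on 5 to 18 reads per library, so these ratios are imprecise.

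CLDN4 was at 12784 and 14577 with the empty virus and 11532 and 10436 with PRH in the libraries labelled NOTCH3 shRNA. Those are log2 fold changes of 7.55 ± 0.21 and 6.08 ± 0.21 over the control shRNA (limma, adjusted p = 2.25e-08 and 1.37e-07). CLDN3 was at 317 and 545 with the empty virus and 437 and 536 with PRH, against at most 11.6 in the control shRNA libraries. Its log2 fold changes were 6.43 ± 0.59 and 5.61 ± 0.59 (limma, adjusted p = 1.79e-05 and 6.29e-05), and it entered the test only because it was high in the libraries labelled NOTCH3 shRNA, since 1 control library reached 10. CLDN3 and CLDN4 are neighbouring genes on chromosome 7, and in neither did the ranges of the shRNAs come near each other.

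CLDN1 was at 2651 and 3542 with the empty virus and 2548 and 2451 with PRH in the libraries labelled NOTCH3 shRNA. It was 3.24 ± 0.18 and 3.74 ± 0.18 higher on the log2 scale than with the control shRNA (limma, adjusted p = 8.88e-07 and 7.00e-07). CLDN1 thus went up with this shRNA label, and down with the PRH virus in control shRNA cells.

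LSR was at 10240 and 7559 with the empty virus and 7319 and 5595 with PRH in the libraries labelled NOTCH3 shRNA. The difference from the control shRNA was 7.86 ± 0.22 on the log2 scale with the empty virus and 3.81 ± 0.22 with PRH (limma, adjusted p = 2.25e-08 and 1.85e-06). F11R was at 6299 and 5413 with the empty virus and 5194 and 4544 with PRH, higher by 4.56 ± 0.14 and 1.90 ± 0.14 (limma, adjusted p = 3.66e-08 and 6.96e-06). For both genes the gap between the shRNAs was narrower with the PRH virus.

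TJP1 was at 13021 and 10356 with the empty virus and 12379 and 9869 with PRH, above every control shRNA library. The log2 fold changes were 0.84 ± 0.13 and 0.69 ± 0.13 (limma, adjusted p = 0.000564 and 0.00243). OCLN was at 3012 and 2451 with the empty virus and 2149 and 1937 with PRH, with log2 fold changes of 0.22 and -0.23 that did not pass (limma, adjusted p = 0.163 and 0.164). CLDN12 was at 2048 and 3100 with the empty virus and 2337 and 3029 with PRH, overlapping the control shRNA libraries, at limma adjusted p = 0.311 and 0.411. Without library B of the empty-virus group labelled NOTCH3 shRNA, OCLN passed at 0.37 (adjusted p = 0.0394) and CLDN12 at -0.55 (adjusted p = 0.0322).

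The 7 higher members stand against 28.9% of 15836 genes that were higher with the empty virus and 26.1% with PRH. The median log2 fold change of the members was 4.56 with the empty virus and 3.74 with PRH, against 0.04 for all genes tested in each. The count and the medians include CLDN3, which entered the test only through the libraries labelled NOTCH3 shRNA and could not have been called lower. Bile duct epithelium markers were higher in the same libraries, as given above, and summed fibroblast markers were at 25691 to 32688 against 36585 to 103535. Of the 6 fibroblast markers, 3 were at 10 or more in both control shRNA libraries with the empty virus. In each of the other groups of experiment 3 it was 4, so the number of markers present did not fall with the sum. The part of these marker differences in the junction genes was not tested. A fall of NOTCH3 itself was not detected with the empty virus and was detected with PRH, as given above. In both settings 7 members were higher.

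**Figure D2:**
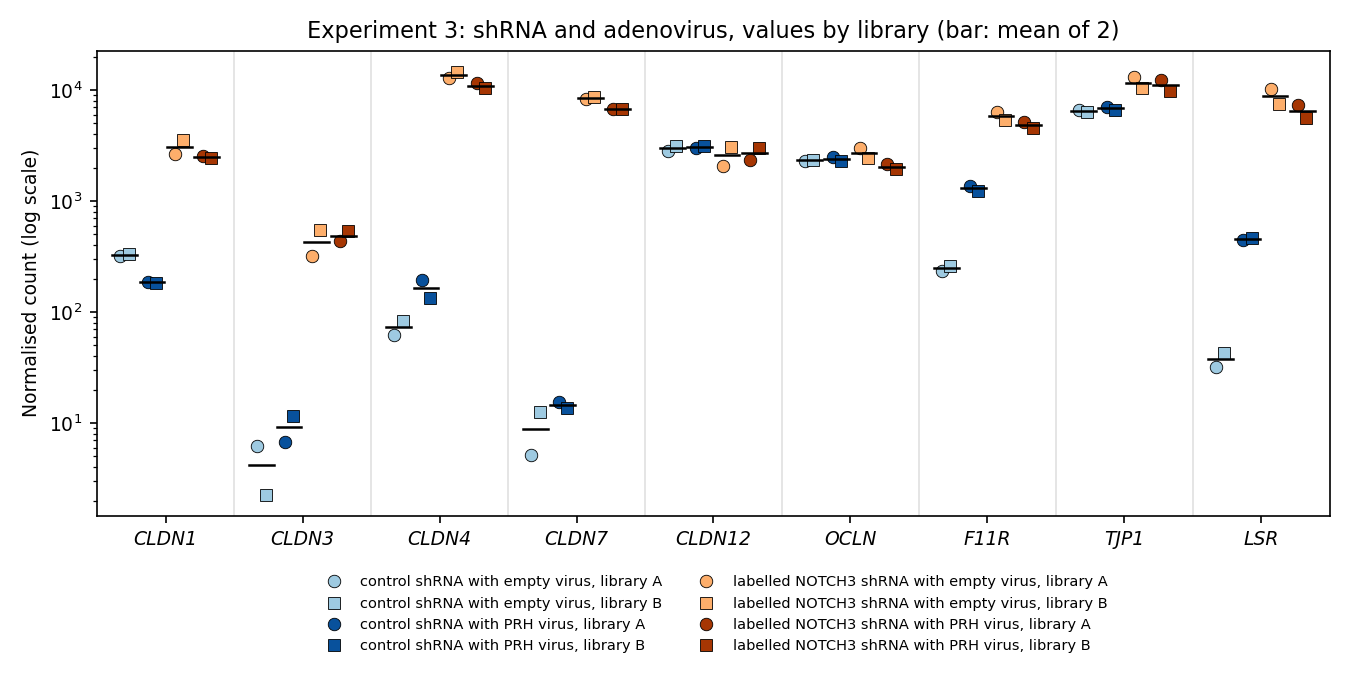
Normalised counts (log scale) of the 9 genes in the 8 libraries of experiment 3, with circles and squares for libraries A and B, colours for the groups and bars for the mean of 2 libraries. CLDN7 goes from at most 15.3 with the control shRNA to at least 6742 in the libraries labelled NOTCH3 shRNA, while OCLN and CLDN12 stay between 1937 and 3156.

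In the cells labelled NOTCH3 shRNA, the PRH virus moved no member past the threshold. LSR with the PRH virus was below both empty-virus libraries, at a log2 fold change of -0.46 (95% confidence interval -0.95 to 0.03; limma adjusted p = 0.314). F11R was at -0.27 (-0.57 to 0.04; adjusted p = 0.361), CLDN4 at -0.32 (-0.79 to 0.16; adjusted p = 0.485) and CLDN1 at -0.29 (-0.69 to 0.10; adjusted p = 0.432). OCLN had the smallest p of the members, with a log2 fold change of -0.41 (95% confidence interval -0.70 to -0.13), an unadjusted p of 0.00899 and a limma adjusted p of 0.132. Of all genes tested, 2.21% passed here. In 6 of the 9 members (CLDN1, CLDN4, CLDN7, OCLN, F11R and LSR) both PRH libraries were below both empty-virus libraries, as in 23.6% of genes tested. At an unadjusted p under 0.05 limma gave 1 member, and edgeR and DESeq2 on recovered reads called 0.

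The difference between the responses was tested directly as the interaction of virus and shRNA. It passed for 3 members, all with a lower response in cells labelled NOTCH3 shRNA, where 4.91% of genes tested passed in that direction. The interaction was -4.04 ± 0.31 for LSR and -2.66 ± 0.19 for F11R on the log2 scale (limma, adjusted p = 0.000348 for both), and -1.47 ± 0.30 for CLDN4 (adjusted p = 0.0163). LSR and F11R thus went up with PRH from low levels in control shRNA cells and started from 10240 and 7559, and from 6299 and 5413, in the other cells. The call of CLDN4 was lost without the intensity trend (limma adjusted p = 0.0927). It was also lost without any single library labelled NOTCH3 shRNA or without empty-virus library A of the control shRNA (adjusted p from 0.0557 to 0.103). CLDN7 passed, at -1.65 (adjusted p = 0.0283), without empty-virus library B of the control shRNA. CLDN1 had an interaction of 0.51 (95% confidence interval -0.06 to 1.07; adjusted p = 0.27), so a difference in its response was not detected. HHEX with the PRH virus was itself lower in the cells labelled NOTCH3 shRNA, at 71911 and 46576 against 228980 and 330421, and the part of that difference in the interaction was not tested.

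**Figure D3:**
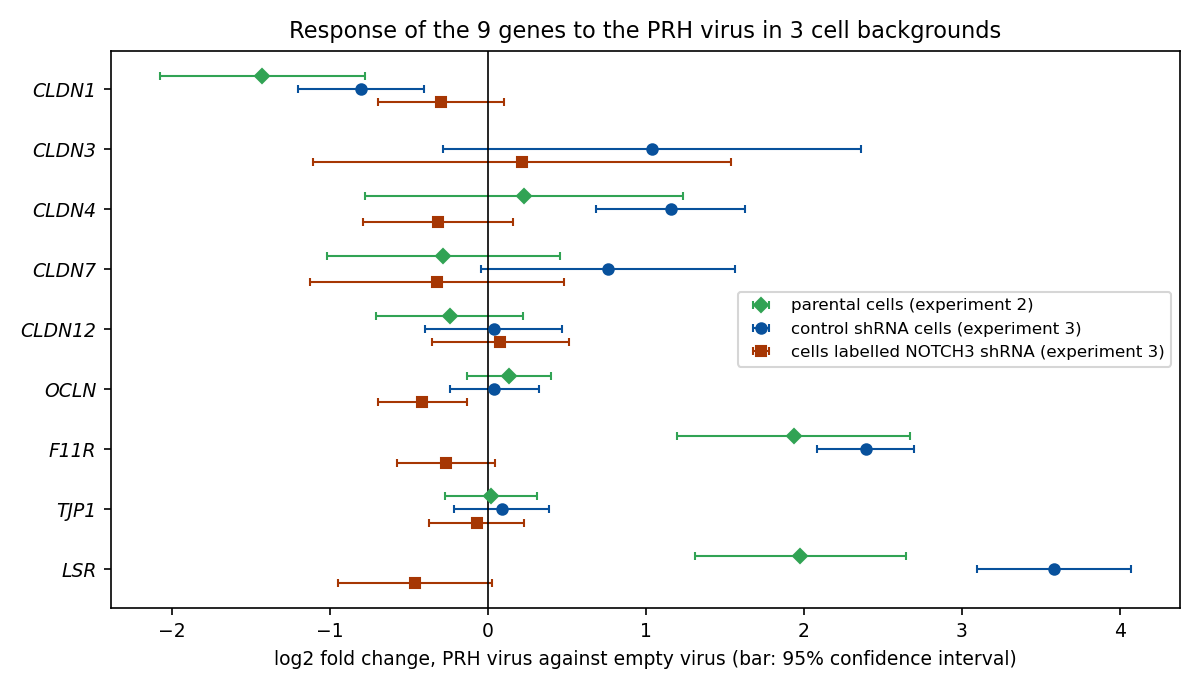
The log2 fold change of each gene with the PRH virus against the empty virus, with its 95% confidence interval, in parental cells (diamonds), control shRNA cells (circles) and cells labelled NOTCH3 shRNA (squares). LSR is at 1.98, 3.58 and -0.46 and F11R at 1.94, 2.39 and -0.27; CLDN3 was not tested in parental cells.

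The PRH shRNA clones of experiment 1 bear on the reverse question, what less PRH does, though the fall of HHEX did not itself pass, as given above. No member passed the test, and neither did any of 14511 genes, or 0% (959 had an unadjusted p under 0.05, 3 of them members). CLDN3, CLDN4, CLDN7 and F11R were nonetheless higher in both PRH shRNA clones than in both control clones, 4 of 9 against 12.3% of genes tested. In each of these the larger value was that of PRH shRNA clone 2.

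CLDN4 was at 515 in PRH shRNA clone 1 and 5488 in clone 2, against 152 and 181 in the control clones. The log2 fold change was 3.33 ± 1.13 (n = 2 per group; limma, adjusted p = 0.532). CLDN7 was at 733 and 3564 against 184 and 73.5, a log2 fold change of 3.79 ± 0.93 (limma, adjusted p = 0.322). In both genes the clones of 1 shRNA lay further apart than the nearest clones of different shRNAs.

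CLDN3 was at 15.9 and 223 in PRH shRNA clones 1 and 2, against 2.93 and 11.5 in the control clones (log2 fold change 3.14 ± 1.43; limma adjusted p = 0.938). F11R was at 909 and 2531 against 546 and 423 (log2 fold change 1.66 ± 0.63; limma adjusted p = 0.683). LSR, the corner protein, was at 223 and 3462 against 265 and 1127, so clone 1 was below both controls and clone 2 above them. Its log2 fold change was 0.68, with a 95% confidence interval from -2.82 to 4.19.

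CLDN1 was at 220 and 532 in the PRH shRNA clones against 283 and 265. OCLN was at 869 and 1255 against 787 and 1118. TJP1 was at 9478 and 10273 against 9018 and 12603. In these 3 genes the groups overlapped. CLDN12 followed the clone number and not the shRNA, with 3507 in PRH shRNA clone 1 and 3170 in control clone 1, but 1217 and 927 in the second clones.

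Without PRH shRNA clone 1, which leaves clone 2 alone and assumes that it varies like the controls, 4 members passed as higher, against 4.77% of genes tested: CLDN3 at 5.0 (limma adjusted p = 0.00119), CLDN4 at 5.04 (3.47e-06), CLDN7 at 4.93 (8.00e-06) and LSR at 2.66 (0.0453). DESeq2 on recovered reads called CLDN3 (adjusted p = 0.0159), CLDN4 (5.61e-05) and CLDN7 (1.70e-05), where it called 4.14% of genes as higher, and edgeR called none. Clone 2 also had more of the RNAs that set the libraries labelled NOTCH3 shRNA apart. Of the genes at 5 or less in every control shRNA library of experiment 3 and at 500 or more in every library labelled NOTCH3 shRNA, 87 without the members, the median level was 453 in PRH shRNA clone 2 and 120 in clone 1. It was 24.1 and 9.54 in the control clones. Summed bile duct markers were 28541 to 135012 in the PRH shRNA clones and 8149 to 12184 in the control clones. Summed fibroblast markers were 23037 to 25149 and 39223 to 80386. NOTCH3 was at 86.8 and 729 in the PRH shRNA clones and 672 and 2065 in the control clones. The part of these differences in the junction genes was not tested.

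**Figure D4:**
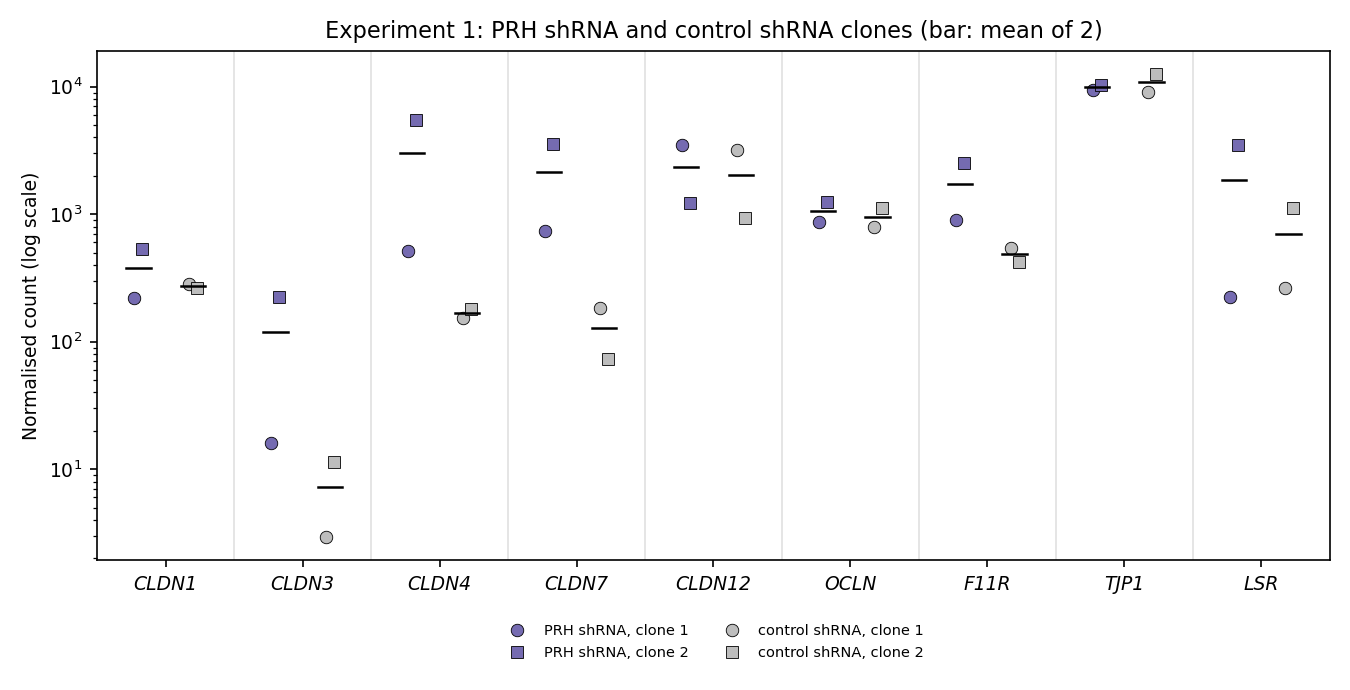
Normalised counts (log scale) of the 9 genes in the 4 clones of experiment 1, with circles and squares for clones 1 and 2 and bars for the mean of 2 clones. CLDN4 and CLDN7 lie above the control clones in both PRH shRNA clones and are highest in clone 2, at 5488 and 3564; CLDN12 separates by clone number.

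Other genes of the junction were read from a list of 42: further claudins, the other scaffolds and their partners. Of these, 31 were tested in experiment 3, 22 in experiment 2 and 28 in experiment 1. With the PRH virus 1 of 22 rose in parental cells and 0 fell, against 9.90% and 5.73% of all genes tested. In control shRNA cells 2 of 31 rose and 3 fell, against 15.2% and 11.8%. ARHGEF2, a RhoA activator held at the junction, rose in both. It went from 2831 and 2988 to 6321 and 6611 in control shRNA cells (log2 fold change 1.15 ± 0.10; limma, adjusted p = 9.1e-05), and from 1532 and 1695 to 2718 and 2697 in parental cells (0.75 ± 0.10; adjusted p = 0.00684). The scaffold TJP3 went from 24.6 and 38.5 to 125 and 125 in control shRNA cells (log2 fold change 1.99; adjusted p = 0.00378, lost in the fit limited to the 4 control shRNA libraries). Tricellulin (MARVELD2), which LSR brings to cell corners, fell by 1.68 on the log2 scale in control shRNA cells. It went from 16.4 and 17.0 to 4.26 and 4.83 (limma, adjusted p = 0.0115). There it moved against LSR, on 5 to 16 reads per library. In parental cells it was at 5.85 and 7.75 with the empty virus and 8.86 and 13.0 with PRH, below the level needed for a test. SYMPK and CSDA fell by 0.55 and 0.34 in control shRNA cells (limma, adjusted p = 0.00137 and 0.0321). CSDA did not pass without any single one of the 4 control shRNA libraries (log2 fold change from -0.40 to -0.28) or without either PRH-virus library labelled NOTCH3 shRNA. Its call was also lost without the intensity trend (limma adjusted p = 0.116) and with equal totals (0.0696). The fit limited to the 4 control shRNA libraries lost it too (0.0780).

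Between the shRNAs with the empty virus, 15 of the 31 were higher in the libraries labelled NOTCH3 shRNA and 4 were lower, against 28.9% and 23.1% of all genes tested. Of the 15, AMOT, ILDR1, ILDR2, CLDN2, CLDN23 and IGSF5 had less than 10 normalised counts in every control shRNA library of experiment 3. They entered the test only because they were high in the libraries labelled NOTCH3 shRNA. Such genes could only be called higher or not at all. The scaffold TJP3 was at 717 and 1336 against 24.6 and 38.5 (log2 fold change 4.95; limma, adjusted p = 4.59e-06). MARVELD2 was at 1391 and 1212 against 16.4 and 17.0, and MARVELD3, of the same family, at 1614 and 1364 against 15.4 and 18.1. AMOT, an angiomotin, was at 987 and 1089 and listed at 0 in both control libraries, which makes it at least 321-fold higher when each control library is set to 3 counts. JAM3, a relative of F11R, was lower at 1225 and 1917 against 4053 and 4363 (log2 fold change -1.46; adjusted p = 0.000126), as was AMOTL1 at 109 and 189 against 561 and 782. SYMPK was at -0.47 and CSDA at -0.32 (adjusted p = 0.00108 and 0.0208). CSDA did not pass without the control library A (log2 fold change -0.27) or the library B labelled NOTCH3 shRNA (-0.22). Its call was also lost without the intensity trend (limma adjusted p = 0.0767) and in the fit limited to the 4 libraries compared (0.0559). The rise therefore did not extend to every junction gene. The median log2 fold change of the 31 was 1.52, with the genes listed at 0 in both control libraries included.

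With the PRH virus 15 of the 31 were higher in the libraries labelled NOTCH3 shRNA and 6 lower, against 26.1% and 21.1% of all genes tested. AMOT, ILDR1, ILDR2, CLDN2, CLDN23 and IGSF5 again entered the test only through their levels in the libraries labelled NOTCH3 shRNA. MARVELD2, AMOT, ILDR1, a relative of LSR, and MARVELD3 led the higher genes. ILDR1 was at 458 and 504 and listed at 0 in both control libraries, at least 176-fold higher by the same bound. AMOTL1, JAM3, ARHGEF2 and CSDA led the lower genes. With the empty virus ARHGEF2 was instead among the higher genes (log2 fold change 0.47; limma, adjusted p = 0.00362). The call of CSDA was lost without the intensity trend (limma adjusted p = 0.0842), and without control library A (0.122) or either library labelled NOTCH3 shRNA (0.0547 and 0.137). The interaction passed for 1 gene of the list, ARHGEF2, at -0.94 ± 0.14 (limma, adjusted p = 0.00472; 0.0558 without the intensity trend). In the cells labelled NOTCH3 shRNA the PRH virus moved 0 of the 31 by limma (3 at an unadjusted p under 0.05), and in experiment 1 the PRH shRNA moved 0 of 28 (7 at an unadjusted p under 0.05).

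**Figure D5:**
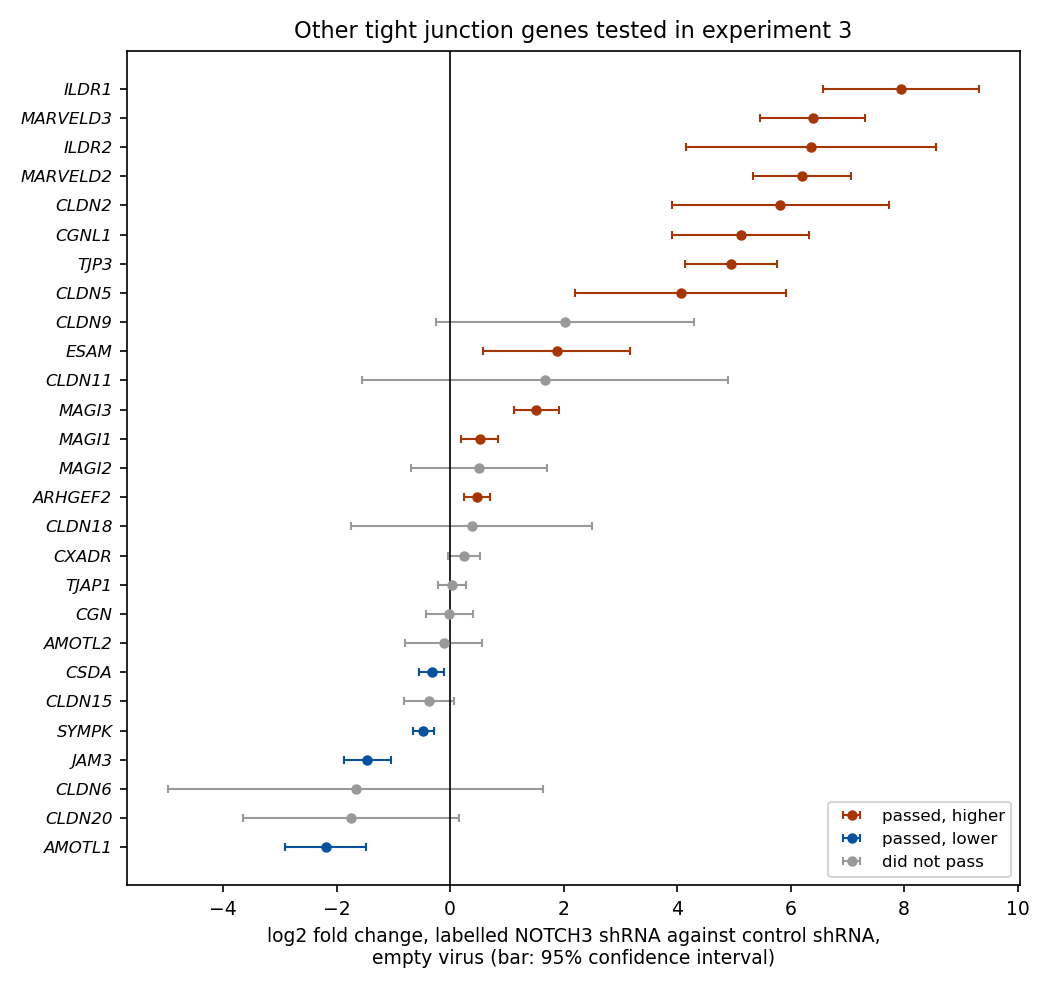
The log2 fold change of 27 other tight junction genes between the libraries labelled NOTCH3 shRNA and the control shRNA libraries with the empty virus, with 95% confidence intervals. In this plot 12 genes passed as higher, 4 as lower and 11 did not pass. Left out are 4 genes listed at 0 in both control libraries, whose ratio of counts is undefined. They are counted among the 31 genes tested, and 3 of them passed as higher.

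Across the 8 libraries of experiment 3, CLDN1, CLDN3, CLDN4 and CLDN7 had correlations with each other from 0.95 to 0.997 (Pearson r of log2 values), and LSR and F11R correlated with each other at the same upper value, 0.997. OCLN and CLDN12 followed none of these, with r of 0.02 and -0.51 to CLDN7. Other pairs reached similar values, with r of 0.956 for CLDN4 and LSR and 0.954 for CLDN4 and TJP1. CLDN1 and F11R were at 0.797. The libraries share 4 groups and the split between the shRNAs, so these correlations describe that split and are not independent evidence. The genes outside the list most like a member on this measure were LAD1 and GGT1 for CLDN7, GAS7 and EVPL for CLDN4, DPYSL3 and ZSWIM5 for CLDN3, and FNBP1L and PARM1 for CLDN1. For LSR they were SLC1A5 and KEAP1, for F11R FUT1 and TSPAN14, for TJP1 C4BPB and BCL2L1, for OCLN SOD2 and CLPP, and for CLDN12 RBL2 and GBAS. Of 13049 candidates, 1412 had an r of at least 0.95 with CLDN7 and 0 had one with CLDN12.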

How the data were processed

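Polyadenylated or total RNA selection is not given in the sources used here; libraries were made with an Illumina TruSeq RNA kit, per the labels' protocols. Reads were processed with Trim Galore, TopHat, featureCounts and DESeq2 on the hg19 build, per the submitters' processing notes, and neither versions nor strand handling are given. What the authors deposited is a signal: counts per gene scaled by the size factor of the library. Dividing by that step returned whole reads for 100% of values within 1e-06. Of 23368 lines per table, 28 with a date for a symbol (0.208% to 0.276% of reads) were left out. Depth limits low genes to a few reads. The confidence intervals come from the limma fit and cover the spread between libraries, and the floor of 3 counts covers counting error only.

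Values were tested as log2(value + 1) with limma 3.58.1 in R 4.3.3. A gene entered if 2 or more libraries of its table had 10 or more normalised counts. The fit used an intensity trend, Benjamini-Hochberg adjustment and a threshold of 0.05. Fold changes on that scale are understated for low genes. Experiment 3 was fitted as 1 model of 8 libraries. edgeR 4.0.16 and DESeq2 1.42.0 were run on recovered reads as alternatives, beside other pseudocounts, filters, scalings and each library left out. Exact rank tests cannot reach the threshold with 2 libraries per group. The p-values measure the spread between clones in experiment 1 and between infections in experiments 2 and 3, in cells labelled as 1 line. For the shRNAs of experiment 3 they give no measure of the spread between separately made shRNA cells.

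All members were described. The members, the list of 42 and the marker lists were chosen with earlier results of these data known; 1 gene of the junction list and 1 marker are not reported here. From the list, up to 4 genes per direction with the smallest p were named, and per member the 2 most similar genes with a mean of at least 50. In experiment 2 the column name of the control mentions a GFP virus, and the labels call it empty.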

Additional observations from a re-analysis of the deposited data

Results flagged for a closer look

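The response to the PRH virus differed between cells labelled NOTCH3 shRNA and control shRNA cells for 3 members, by the interaction in the limma model. The difference was -4.04 on the log2 scale for LSR, -2.66 for F11R and -1.47 for CLDN4, with adjusted p of 0.000348, 0.000348 and 0.0163. Both PRH libraries of control shRNA cells were higher than both empty-virus libraries for each gene, and both PRH libraries of the cells labelled NOTCH3 shRNA were lower. Over the alternatives the adjusted p ran up to 0.0182 for LSR, 0.0153 for F11R and 0.103 for CLDN4. HHEX from the virus, the NOTCH3 label and the marker levels differed between these cells too, and their part was not tested.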

How the results depend on the processing

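With 2 libraries per group, the calls lean on the spread shared across genes. Of 969 values of members under alternatives, 921 kept direction and side of the threshold, 11 lost the call, 11 gained it and 26 changed sign. The number of members that passed in experiment 1 was 0, but 3 with DESeq2 and 0 to 4 with 1 clone left out. The replicate block on clone number gave 0. The main fit did not use the clone number. Deviations of the clone 1 libraries from their group means nonetheless correlated across genes between the shRNAs (r = 0.582, 2 pairs). With the block, 10 of 14511 genes of experiment 1 passed, against 0 without it. What the clones of the same number share was not tested. Equal totals shifted the median of all genes by 0.10 in experiment 1. The shift was also 0.10 for the PRH virus in control shRNA cells, and 0.07 in cells labelled NOTCH3 shRNA. In control shRNA cells equal totals gave 2959 genes higher and 1270 lower with PRH, against 2412 and 1870 in the main fit. In parental cells 3 members passed, but 1 without an intensity trend and 3 with any library left out. For the PRH virus in control shRNA cells 4 passed, but 2 with 4 libraries. Leaving out a library gave 7 to 9 for the shRNAs with the empty virus and 2 to 4 for the interaction. No paired analysis was possible for experiments 2 and 3 because their columns carry no replicate number. TJP1 with PRH in cells labelled NOTCH3 shRNA changed sign with equal totals (-0.07 to 0.00156).

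With 1 library left out, values that changed sign ran as follows on the log2 scale, and none of them had passed. For the PRH shRNA, CLDN1 ran from -0.32 to 0.95, CLDN12 from -0.62 to 1.16, OCLN from -0.11 to 0.42, TJP1 from -0.35 to 0.13 and LSR from -1.29 to 2.66. For PRH in parental cells, CLDN4 ran from -0.36 to 0.82, CLDN12 from -0.50 to 0.0172 and TJP1 from -0.11 to 0.15. For PRH in control shRNA cells, CLDN12 ran from -0.0409 to 0.11 and OCLN from -0.00841 to 0.0908. For PRH in cells labelled NOTCH3 shRNA, CLDN3 ran from -0.17 to 0.61, CLDN12 from -0.22 to 0.38, TJP1 from -0.24 to 0.0940 and NOTCH3 from -0.16 to 0.47. Between the shRNAs with the empty virus, CLDN12 ran from -0.55 to 0.0521 and NOTCH3 from -0.24 to 0.40. The interaction ran from -0.26 to 0.34 for CLDN12 and from -0.32 to 0.00618 for TJP1. The cause of these changes was not tested.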
